A study of Mus musculus with 6 samples.

Results

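The nuclear genes of the mitochondrial respiratory chain were compared, complex by complex, between bone marrow hematopoietic stem cells with and without a Cre-driven deletion of Ppp2ca, the gene of the catalytic subunit alpha of protein phosphatase 2A. Members were taken by gene symbol alone: the Nduf genes whose next letters are a, b, c, s or v and a digit (complex I), Sdha to Sdhd (complex II), the Uqcr genes and Cyc1 (complex III), Cycs (cytochrome c), the Cox genes of subunits 4 to 8 with the letter a, b or c (complex IV), and the Atp5 genes (ATP synthase), without symbols marked as pseudogenes. The rule took 84 of the 52550 genes listed. Of these, 80 had 1 normalised read or more in 3 or more libraries and were tested among 20136 genes: 36 of complex I, 4 of complex II, 9 of complex III, cytochrome c, 13 of complex IV and 17 of ATP synthase. The other 4 were Cox7b2, Cox8b and Cox8c, which had 0 reads in all 6 libraries, and Ndufa4l2, which had reads in KO replicate 3 alone. Symbols and complexes do not match everywhere: Ndufa4 is now placed in complex IV, Cox7a2l is a supercomplex factor, Atp5sl has been described as a complex I assembly factor, and the rule passes over Ndufab1 and Cox4i1.

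Both groups are mouse primary hematopoietic stem cells from bone marrow and carry floxed Ppp2ca alleles. The control, WT, is Ppp2caf/f (3 libraries), and the deleted group, KO, is VAV1crePpp2caf/f (3 libraries), in which the Vav1 promoter drives Cre across blood cells from their origin. A Cre line without floxed alleles is not among the groups, so the presence of Cre and the deletion cannot be told apart. The sources used here do not give age, sorting gate or the number of animals behind a library, and p-values therefore measure only the spread between these libraries, which may be technical.

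As background, the chain passes electrons from NADH through complex I, or from succinate through complex II, to coenzyme Q, then through complex III and the mobile carrier cytochrome c to complex IV, which reduces oxygen. Complexes I, III and IV pump protons across the inner mitochondrial membrane, and ATP synthase uses the return flow to make ATP. All subunits of complex II and most of the others are encoded in the nucleus, while core subunits of complexes I, III, IV and ATP synthase are encoded by mitochondrial DNA. Hematopoietic stem cells are known for low reliance on oxidative phosphorylation at rest and for a rise in mitochondrial respiration as they differentiate.

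Libraries held 37951985 to 58692037 reads assigned to genes, and each deposited value is a read count divided by 1 size factor per library, called normalised reads here. The 37 genes of mitochondrial DNA had no value above 0, so only the nuclear share of each complex was measured. Ppp2ca itself was at 32909, 33451 and 33169 normalised reads in WT replicates 1 to 3 and at 23728, 22419 and 24046 in KO replicates 1 to 3, with no overlap. The KO mean was 70.5% of the WT mean (log2 difference -0.50 ± 0.07 (SE), adjusted p = 0.00268, limma), so much of the transcript was still counted in the libraries labelled KO. Many cell type markers differed between genotypes (adjusted p under 0.05, limma), beside 10.3% of all genes called higher and 13% lower. Of the stem cell markers, 11 of 12 were lower in KO (summed normalised reads 89592 to 100481 in WT and 30328 to 47953 in KO), as were 9 of 10 erythroid markers (51001 to 57619 and 11095 to 12864), 7 of 7 megakaryocyte markers (22747 to 27253 and 5036 to 7082), and 4 of 8 macrophage markers (56705 to 67559 and 21736 to 28594). Of the granulocyte-monocyte progenitor markers, 6 of 8 were higher and 1 lower (1265184 to 1503051 and 1866433 to 2080314). Of the mature neutrophil markers 3 of 9 were higher, 1 lower (11.1%, near the share of all genes) and 5 not called. Their sums overlapped (83574 to 142052 and 120625 to 267408). B cell markers summed to 31203 to 54013 in WT and 5763 to 7063 in KO, with 2 of 5 tested members lower. These were Igkc (10624 to 29557 in WT and 232 to 753 in KO) and Ighm (15707.5 to 22291 and 2050 to 4693), most of the WT sum. Cd79b had means of 2632 in WT and 2533 in KO (adjusted p = 0.759, limma). Pax5 and Ebf1 were at 0 in all 6 libraries, and Ms4a1 was at 15.2 in WT replicate 1 and at 0 elsewhere. T and NK cell markers summed to 34520 to 35714 in WT and 41760.0 to 44048 in KO, with 1 of 6 tested members higher and 4 lower; nearly all of the sum was Nkg7 (33344 to 34751 in WT and 41638 to 43814 in KO). In such bulk samples fewer cells of a type and less RNA per cell cannot be told apart, and the part of these shifts in the results that follow was not tested.

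Respiratory chain genes were more often higher than lower in KO. Of the 80 members, 24 were higher and 3 lower at an adjusted p under 0.05 (limma on log2 of the value plus 1, Benjamini-Hochberg over all 20136 genes). Among all genes 10.3% were called higher and 13% lower, against 30% and 3.75% of the members. The median log2 difference between KO and WT was 0.20 over the members and -0.02 over all genes, and 63 members lay above 0. Most members are strongly expressed, so a second background was chosen after the values were seen: of the 7510 genes with a mean of at least 1000 normalised reads, 21.3% were called higher and 12.1% lower, with a median of 0.09, against 24 higher and 1 lower of the 77 members above that level. The 3 KO values lay wholly above the 3 WT values in 35 members and wholly below in 7, while 19.1% and 21.7% of all genes, and 33.6% and 19.4% of those with a mean of at least 1000, were so separated. By edgeR's quasi-likelihood test on the recovered reads 28 members were higher and 3 lower, and by DESeq2 29 and 4. Over all genes edgeR called 2075 higher and 2496 lower of 16708, and DESeq2 2567 and 3077 of 20136. Of the 7510 genes with a mean of at least 1000, edgeR called 1673 higher and 972 lower, and DESeq2 1968 and 1118.

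**Figure D1:**
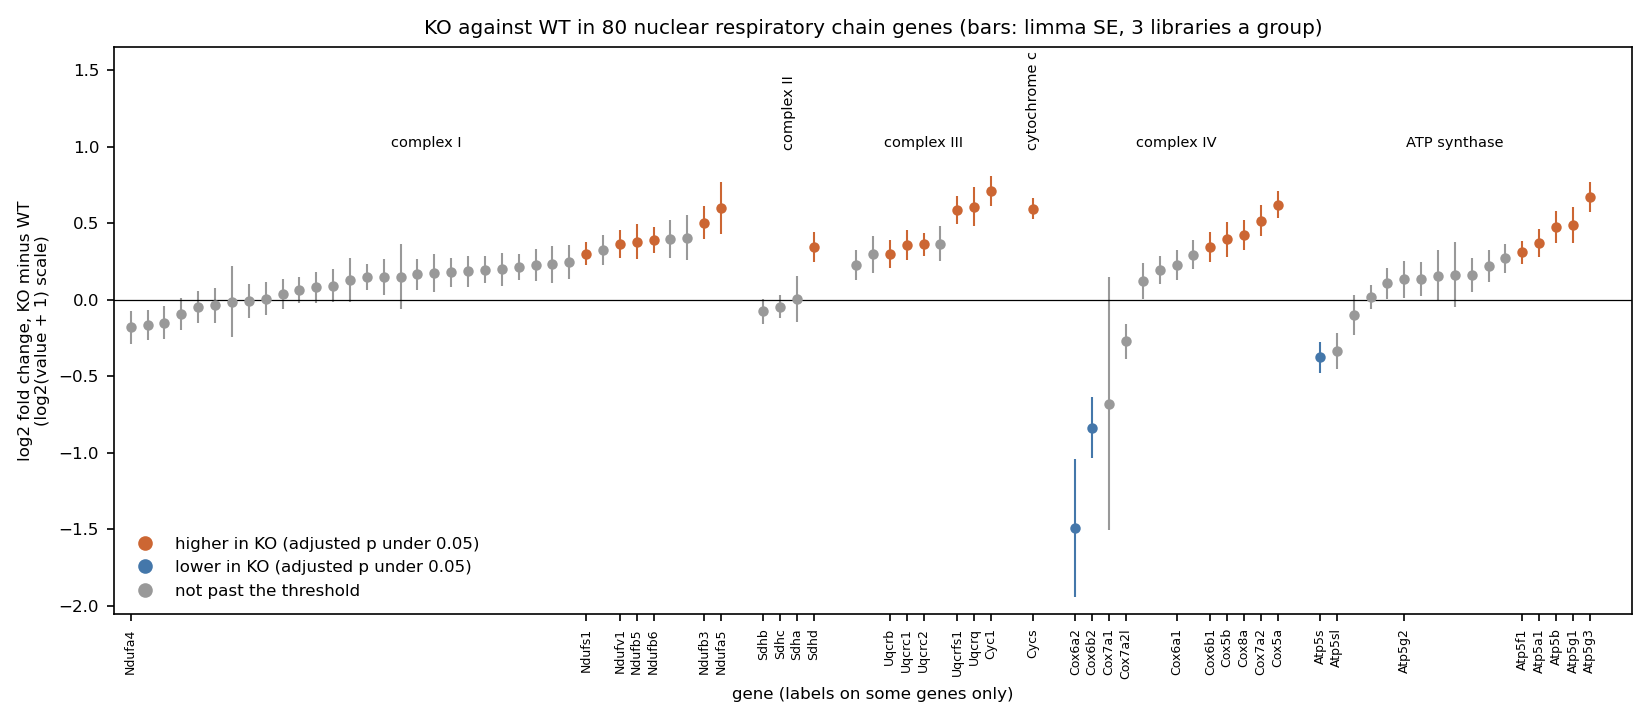
Log2 difference between KO and WT (KO minus WT, on log2 of the normalised reads plus 1) for each of the 80 tested members, grouped by complex and with labels on some of them; points are limma estimates with bars of 1 SE, in orange (higher) or blue (lower) where the adjusted p was under 0.05 and in grey otherwise. All 9 complex III genes and cytochrome c lie above 0, while 3 of the 4 complex II genes lie close to it.

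The count of higher members rested on several libraries: it was 15 without KO replicate 1, 8 without KO replicate 3, 12 without WT replicate 1 and 10 without WT replicate 2, against 24 with all 6. It was 25 without WT replicate 3 and 26 without KO replicate 2. Over all genes the count of higher genes fell too. Against 2069 with all 6 libraries, it was 1598 without KO replicate 1, 993 without KO replicate 3 and 1496 without WT replicate 1. It was 1622 without WT replicate 2, 1584 without WT replicate 3 and 1787 without KO replicate 2. Whether the count of members fell more than that of all genes was not tested. No called member turned sign under any of the 19 alternative settings, and 5 kept their call under every one: Cycs, Cyc1, Uqcrfs1, Cox5a and Atp5g3. Of the 27 calls, 22 were lost without an intensity trend, while 11 were kept with total read scaling, 10 with quantile normalization, 19 with no filter on low values, and all 27 with TMM scaling, edgeR or DESeq2. The libraries themselves stood in a steady order within each group. WT replicate 3 was the highest WT library in 72 of the 80 members and WT replicate 1 the lowest in 54, while KO replicate 1 was the highest KO library in 53 and KO replicate 2 the lowest in 58.

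Complex III, the cytochrome bc1 complex, held the highest share of called genes among complexes I to IV. Of its 9 genes, 6 were higher (66.7%) and 0 lower in KO, beside 10.3% and 13% of all genes. Of genes with a mean of at least 1000 normalised reads, 21.3% and 12.1% were so called. All 9 differences were above 0, and the median was 0.36. In 8 of the 9 the KO values lay wholly above WT, beside 19.1% of all genes and 33.6% of those with that mean. Cyc1 (cytochrome c1, the heme subunit that hands electrons to cytochrome c; chr15:76343523-76345934, GRCm38) was at 11260.5, 12788 and 14168 normalised reads in the WT libraries and 20816, 20312 and 21145 in the KO libraries. Every KO library was above every WT library (log2 difference 0.71 ± 0.10 (SE), adjusted p = 0.00261, limma). Uqcrfs1, the Rieske iron-sulfur subunit and the other nuclear-encoded electron carrier of the complex, was at 8114, 8595 and 8862 in WT and 13934, 11579 and 12920.1 in KO (log2 difference 0.58 ± 0.09 (SE), adjusted p = 0.00449). Its groups were also apart.

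The small subunit Uqcrq was at 4772, 4727 and 5511 in WT and 8824, 6520.1 and 7639 in KO (log2 difference 0.61 ± 0.13 (SE), adjusted p = 0.0128), and the lowest KO library was still above the highest WT library. Uqcrc2, one of the pair of large core proteins facing the matrix, was at 10038, 10890.1 and 11224 in WT and 14205, 13607 and 13452 in KO (log2 difference 0.36 ± 0.08 (SE), adjusted p = 0.0144). Its call was lost without KO replicate 3 (adjusted p = 0.0551). Its partner Uqcrc1 moved by 0.36 ± 0.10 (SE, adjusted p = 0.0377, limma), a call lost without WT replicate 1, 2 or 3 or without KO replicate 1 or 3 (adjusted p from 0.0704 to 0.125). Uqcrb, a ubiquinone-binding subunit, differed by 0.30 ± 0.09 (SE, adjusted p = 0.0487, limma), lost without WT replicate 1 or 2 or without KO replicate 1 or 3 (adjusted p from 0.122 to 0.16). The 3 genes that missed the threshold were the small subunits Uqcr11 (0.37, adjusted p = 0.0560), Uqcr10 (0.30, adjusted p = 0.118) and the hinge protein Uqcrh (0.23, adjusted p = 0.132), all in limma. Leaving out KO replicate 3 reduced the higher genes of complex III to 3.

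Cytochrome c, the soluble carrier between complexes III and IV, had the smallest p of all members. Cycs (chr6:50562563-50566538) was at 19948, 21074 and 20447 normalised reads in WT and 30199, 31654 and 30950.0 in KO, or 20489.6 ± 564 and 30935 ± 728 (mean ± SD, n = 3 each). The 3 libraries of each genotype lay close together and far from the other group (log2 difference 0.59 ± 0.07 (SE), adjusted p = 0.00160, limma).

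**Figure D2:**
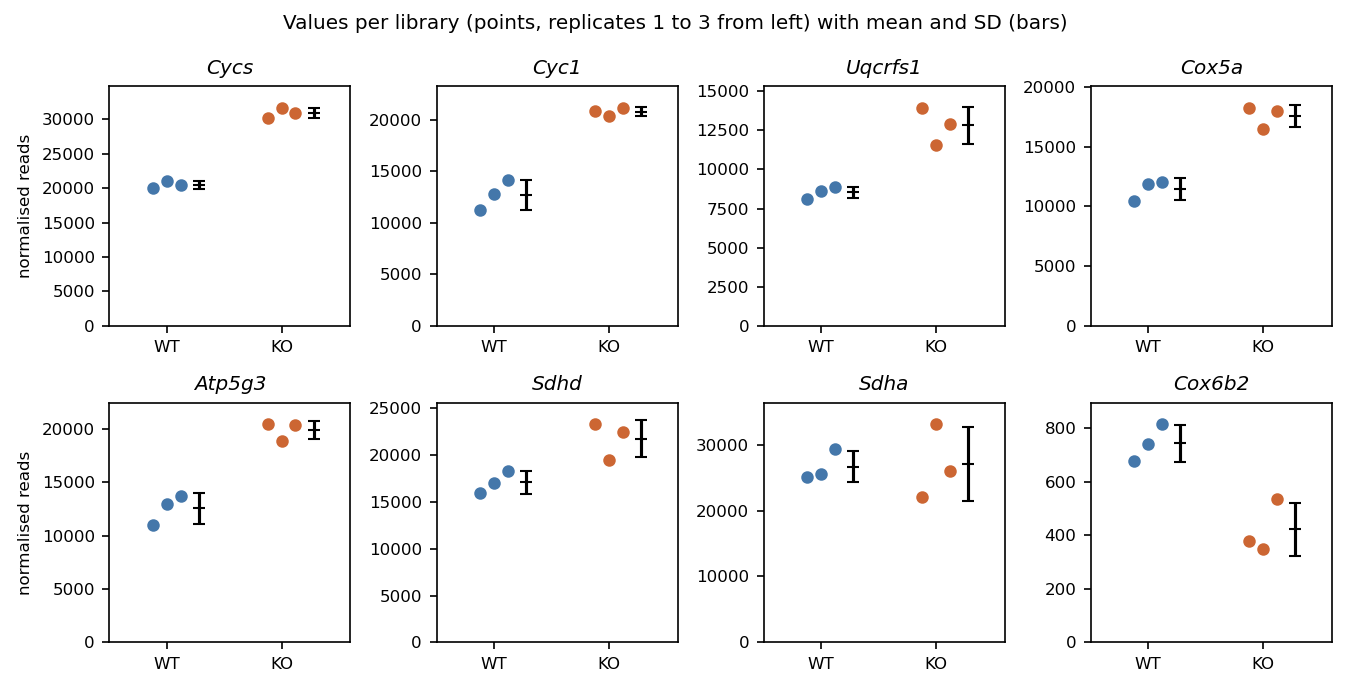
Normalised reads in each library for the members the text turns on, 1 panel per gene with its own linear axis from 0; each point is 1 library, with replicates 1 to 3 from the left, and the black bars give the group mean and SD. Cycs, Cyc1, Uqcrfs1, Cox5a and Atp5g3 show KO libraries wholly above WT libraries, as does Sdhd, while Sdha overlaps and Cox6b2 lies wholly below.

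Complex IV, cytochrome c oxidase, had 5 genes higher and 2 lower of 13, with a median of 0.23. The share called higher was 38.5%, beside 10.3% of all genes and 21.3% of those with a mean of at least 1000. The share called lower, 15.4%, was near the 13% of all genes. The genes that were higher are widely expressed forms of small subunits that surround the mitochondrially encoded core. Cox5a was at 10432, 11859.8 and 12057 normalised reads in WT and 18243, 16501 and 17944 in KO (log2 difference 0.62 ± 0.09 (SE), adjusted p = 0.00310), with no overlap between groups. Cox7a2 was at 5564, 6001 and 6855 in WT and 9370.1, 8221 and 8709 in KO (log2 difference 0.52 ± 0.10 (SE), adjusted p = 0.0107), again apart in every library. Cox8a rose from 7947, 8716 and 9832 in WT to 12105, 11335 and 11939 in KO (log2 difference 0.42 ± 0.10 (SE), adjusted p = 0.0176), and the call was lost without WT replicate 2 or without KO replicate 3 (adjusted p from 0.0545 to 0.0711). Cox6b1 and Cox5b differed by 0.34 (adjusted p = 0.0389) and 0.39 (adjusted p = 0.0402) in limma. Both calls were thin: that of Cox6b1 was lost without WT replicate 1 or 2 or without KO replicate 1, 2 or 3 (adjusted p from 0.0501 to 0.128), and that of Cox5b without WT replicate 1 or 2 or without KO replicate 1 or 3 (adjusted p from 0.0958 to 0.106).

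The 2 lower genes of complex IV are alternative isoforms, known from tissues other than blood. Cox6b2, known as the testis form of subunit 6b, was at 676, 740.3 and 815 in WT and 380.5, 349.7 and 537 in KO (log2 difference -0.84 ± 0.20 (SE), adjusted p = 0.0204). Every KO library was below every WT library, but the call was lost without WT replicate 2 or 3 or without KO replicate 1 (adjusted p from 0.0515 to 0.0656). Cox6a2, the heart and muscle form of subunit 6a, was low in all libraries, at 80.7, 138 and 115 in WT and 52.5, 21.6 and 48.3 in KO (log2 difference -1.49 ± 0.45 (SE), adjusted p = 0.0479), and lost its call without WT replicate 1, 2 or 3 or without KO replicate 2 or 3 (adjusted p from 0.0638 to 0.138). Cox6a2 overlaps Itgad, an integrin gene that was at 92.3 ± 41.5 in WT and 45.1 ± 11.9 in KO (mean ± SD, n = 3; log2 difference -0.96 ± 0.43 (SE), adjusted p = 0.149), and without strand the reads of the pair cannot be told apart. Cox7a1, the heart form of subunit 7a, was at 44.4, 18.1 and 11.4 in WT and 31.1, 3.93 and 15.5 in KO, with overlapping groups (log2 difference -0.68 ± 0.83 (SE), adjusted p = 0.612). Of the 2 lower genes, 1 was called when KO replicate 1, 2 or 3 or WT replicate 1 was left out, and 0 without WT replicate 2 or WT replicate 3. Higher genes of complex IV numbered 3 without KO replicate 1, 2 without KO replicate 3, 3 without WT replicate 1 and 2 without WT replicate 2.

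As a share of their subunit's normalised reads per kilobase of exon length, the alternative forms were minor in both genotypes. The length is that of all annotated exons of a gene merged, so these are not shares of transcript molecules. Cox6b2 made up 4.11%, 4.36% and 4.03% of subunit 6b in WT and 1.68%, 1.66% and 2.38% in KO. Cox6a2 made up 0.788%, 1.26% and 0.926% of subunit 6a in WT and 0.381%, 0.175% and 0.375% in KO. Both shares were lower in every KO library, with an exact two-sided permutation p of 0.1, the smallest that 3 against 3 allows, and 0.15 after adjustment over 6 isoform shares. Cox7a1 made up 0.737% ± 0.578 in WT and 0.327% ± 0.249 in KO (SD, n = 3, exact permutation p = 0.5).

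ATP synthase had 5 genes higher and 1 lower of 17, with a median of 0.16. The shares, 29.4% and 5.88%, stood beside 10.3% and 13% of all genes. Of genes with a mean of at least 1000 normalised reads, 21.3% and 12.1% were so called. The higher genes lay in the catalytic head, the c ring and the peripheral stalk. In the catalytic head 2 of 5 genes were higher, the subunits that form the nucleotide-binding ring. That share of 40% stands beside the same 10.3% and 21.3%, and rests on few genes. Atp5b, the catalytic beta subunit, was at 64659, 77797 and 83430.1 normalised reads in WT and 101567, 102610.0 and 108088 in KO (log2 difference 0.47 ± 0.11 (SE), adjusted p = 0.0159), without overlap, and lost its call without KO replicate 3 (adjusted p = 0.0679). In normalised reads per kilobase of exon length it had the highest WT level of all members, 17771, followed by Cox6a1 at 16352 and Cox6b1 at 15468. Atp5a1, the alpha subunit, differed by 0.37 ± 0.09 (SE, adjusted p = 0.0232, limma), lost without WT replicate 1 or 2 or without KO replicate 1 or 3 (adjusted p from 0.0534 to 0.0843). The stalk subunits of the head did not pass: gamma, Atp5c1, at 0.27 (adjusted p = 0.0773), delta, Atp5d, at 0.22 (adjusted p = 0.181), and epsilon, Atp5e, at -0.10 (adjusted p = 0.636), in limma.

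The c ring, the rotor turned by protons, is encoded by 3 genes whose mature proteins are the same. Atp5g3 (chr2:73908447-73911326) was at 10997, 12941 and 13766 in WT and 20446, 18925 and 20398 in KO (log2 difference 0.67 ± 0.10 (SE), adjusted p = 0.00361). Atp5g1 was at 9181, 10036 and 11779.9 in WT and 15832, 13090.3 and 14436 in KO (log2 difference 0.49 ± 0.12 (SE), adjusted p = 0.0209), a call lost without WT replicate 1 or 2 or without KO replicate 1 or 3 (adjusted p from 0.0552 to 0.0722). Atp5g2 overlapped between groups, at 3639, 3773 and 4821 in WT and 4435, 4459 and 4404 in KO (log2 difference 0.13 ± 0.12 (SE), adjusted p = 0.485). Atp5g3 thus took 55.5%, 58.0% and 54.5% of c ring reads per kilobase in WT and 61.5%, 62.0% and 62.7% in KO. Atp5g2 took 23.9%, 22.0% and 24.8% in WT and 17.4%, 19.0% and 17.6% in KO. Neither share overlapped between genotypes (exact permutation p = 0.1 for each, the smallest possible, 0.15 adjusted). The Atp5g1 share was 20.4% ± 0.387 in WT and 19.96% ± 1.08 in KO (SD, n = 3, exact permutation p = 0.6). Without division by length the mean WT shares were 38.3% for Atp5g1, 15.1% for Atp5g2 and 46.6% for Atp5g3. The order of Atp5g1 and Atp5g2 thus depends on the exon lengths used.

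**Figure D3:**
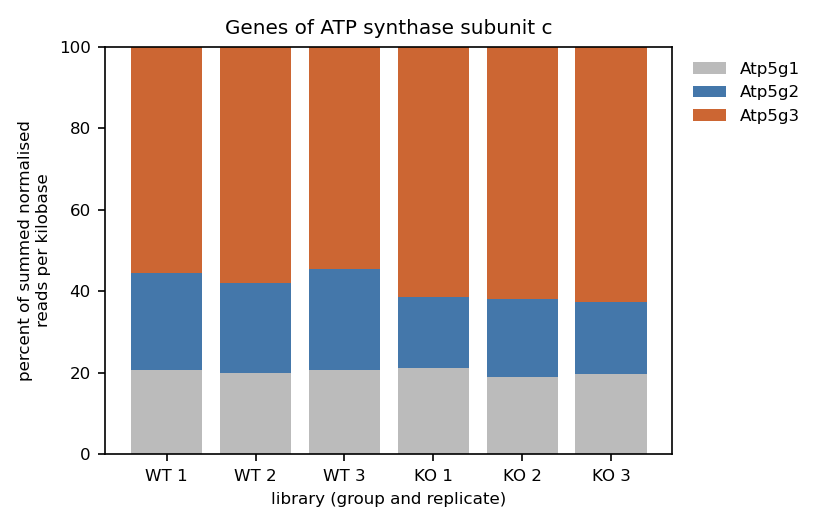
Stacked share of each c ring gene in the summed normalised reads per kilobase of Atp5g1, Atp5g2 and Atp5g3, in percent, for each of the 6 libraries. The Atp5g3 share is higher and the Atp5g2 share lower in every KO library than in any WT library, while the Atp5g1 shares overlap.

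In the peripheral stalk, which holds the head still, 1 of 4 genes was higher (25%). Of all genes 10.3% were called higher, and of those with a mean of at least 1000 normalised reads 21.3%. The gene was Atp5f1, the b subunit, with a difference of 0.31 ± 0.07 (SE, adjusted p = 0.0209, limma). Its call was lost without WT replicate 1 or 2 or without KO replicate 3 (adjusted p from 0.053 to 0.0925). Atp5h, Atp5j and Atp5o differed by 0.11, 0.16 and 0.02, all with overlapping groups. The membrane subunits Atp5j2, Atp5k and Atp5l, 3 genes with differences of 0.16, 0.16 and 0.13, were not called. The lower gene was Atp5s, known as coupling factor B, at 1842, 1839 and 1969 in WT and 1451, 1368 and 1535 in KO (log2 difference -0.38 ± 0.10 (SE), adjusted p = 0.0334). Each KO library was below each WT library, yet leaving out any 1 of the 6 libraries ended the call (adjusted p from 0.0687 to 0.0948). Its namesake Atp5sl fell short at -0.34 (adjusted p = 0.0785, limma), and passed without WT replicate 2 (adjusted p = 0.0441). Higher genes of ATP synthase numbered 3 without KO replicate 1, 1 without KO replicate 3, 2 without WT replicate 1 and 2 without WT replicate 2.

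Complex I, NADH dehydrogenase and the largest complex of the chain, had 6 genes higher and 0 lower of 36, with a median of 0.17. The share called higher, 16.7%, lay above the 10.3% of all genes and below the 21.3% of genes with a mean of at least 1000 normalised reads, a level that all 36 reached. Unadjusted, 10 genes were higher and 0 lower at p under 0.05 (limma), edgeR called 8 and 0, and DESeq2 9 and 0. Of the 7510 genes with a mean of at least 1000, 2309 were higher and 1324 lower unadjusted. For these, edgeR called 1673 and 972, and DESeq2 1968 and 1118. Of the 7 nuclear core subunits, which carry the flavin, the iron-sulfur clusters and the quinone site, 2 were higher. That share of 28.6% stands beside the same 10.3% and 21.3%, and rests on few genes. Ndufv1, the flavin-binding subunit where NADH is oxidised, was at 4878, 5307 and 5486 in WT and 7229, 6287 and 6697 in KO (log2 difference 0.37 ± 0.09 (SE), adjusted p = 0.0244), and lost its call without WT replicate 1 or 2 or without KO replicate 1 or 3 (adjusted p from 0.0617 to 0.0878). Ndufs1, the large iron-sulfur subunit, was at 9762, 10329.6 and 10613 in WT and 11949, 13063 and 12822 in KO (log2 difference 0.30 ± 0.08 (SE), adjusted p = 0.0279), lost without WT replicate 1 or 2 or without KO replicate 2 or 3 (adjusted p from 0.0653 to 0.114). Ndufv2, the small flavoprotein-arm subunit, differed by 0.21 (adjusted p = 0.116, limma).

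Of 29 accessory subunits of complex I, 4 were higher (13.8%) and 0 lower. This share was near the 10.3% of all genes called higher. It was below the 21.3% of those with a mean of at least 1000 normalised reads. Ndufb6, of the distal membrane arm, was at 5496, 5582 and 5874 in WT and 7905, 7005 and 7313 in KO (log2 difference 0.39 ± 0.08 (SE), adjusted p = 0.0140), apart in every library, and lost its call without KO replicate 3 (adjusted p = 0.0579). Ndufb3, of the same arm, was at 4221, 3996 and 4752 in WT and 6892, 5675 and 5839.7 in KO (log2 difference 0.50 ± 0.11 (SE), adjusted p = 0.0155), lost without WT replicate 2 (adjusted p = 0.0542). Ndufa5 had the largest difference of the complex but a wide spread: it was at 1820.0, 2083 and 2261 in WT and 2763, 2702 and 3979 in KO (log2 difference 0.60 ± 0.17 (SE), adjusted p = 0.0382), and the call was lost without WT replicate 1, 2 or 3 or without KO replicate 3 (adjusted p from 0.0565 to 0.113). Ndufb5 differed by 0.38 ± 0.11 (SE, adjusted p = 0.0453, limma), lost without WT replicate 1 or 2 or without KO replicate 1, 2 or 3 (adjusted p from 0.0549 to 0.166). Ndufa10 and Ndufa11 just missed the threshold at adjusted p = 0.0509 and 0.0528 (limma), with differences of 0.32 and 0.40. The lowest differences were those of Ndufa4 (-0.18, adjusted p = 0.279) and Ndufa13 (-0.17, adjusted p = 0.266), both in limma and both without overlap between groups. Complex I genes called higher numbered 1 without KO replicate 3, 2 without WT replicate 1 and 1 without WT replicate 2. They numbered 0 with total read scaling, where the median was 0.028, 0 without the intensity trend and 2 with quantile normalization.

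Complex II, succinate dehydrogenase, which also belongs to the citric acid cycle, differed in 1 of 4 genes and had a median of -0.02. That gene was higher, a share of 25% beside 10.3% of all genes and 21.3% of those with a mean of at least 1000. Sdha, the flavoprotein, was at 25014, 25586 and 29366 normalised reads in WT and 21994, 33070.1 and 26041 in KO (log2 difference 0.00 ± 0.15 (SE), adjusted p = 0.990). Sdhb, the iron-sulfur subunit, was at 12421, 12852 and 14345 in WT and 12766, 12464 and 12331 in KO (log2 difference -0.07 ± 0.08 (SE), adjusted p = 0.570), and the membrane anchor Sdhc at 11663, 11204 and 11566 in WT and 11637, 10465 and 11295 in KO (log2 difference -0.05 ± 0.08 (SE), adjusted p = 0.722). In these 3 genes the WT and KO libraries overlapped. The other anchor, Sdhd, was at 15889, 16991 and 18325 in WT and 23249, 19462 and 22393 in KO (log2 difference 0.34 ± 0.10 (SE), adjusted p = 0.0372), with every KO library above WT, and lost its call without WT replicate 1 or 2 or without KO replicate 1 or 3 (adjusted p from 0.0929 to 0.133).

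Shares of all assigned reads, which do not depend on the size factors, were also compared. Complex III took 0.213%, 0.207% and 0.226% of reads in WT replicates 1 to 3 and 0.287%, 0.239% and 0.263% in KO replicates 1 to 3, a KO mean of 122% of WT without overlap. Cytochrome c took 0.0449%, 0.0455% and 0.0452% and 0.0612%, 0.0632% and 0.0611%, or 137% of WT, and ATP synthase 0.478%, 0.504% and 0.579% and 0.610%, 0.585% and 0.605%, or 115%. Neither of these overlapped. Complex IV took 0.173%, 0.175% and 0.203% and 0.221%, 0.195% and 0.208%, which overlapped. For complex I the shares were 0.441%, 0.433% and 0.497% and 0.493%, 0.425% and 0.461%, with means of 0.457% and 0.460%, and for complex II 0.146%, 0.144% and 0.163% and 0.141%, 0.151% and 0.142%, both with interleaved libraries. The deposited values summed to more in KO than in WT, and dividing by total reads instead took the median log2 difference of all genes from -0.02 to -0.16 and that of the members from 0.20 to 0.05. The distance between the members' median and that of all genes was 0.22 with the deposited scaling and 0.21 with total reads. Quantile normalization took it to -0.01, with medians of 0.07 and 0.08, and left 9 members higher and 2 lower.

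**Figure D4:**
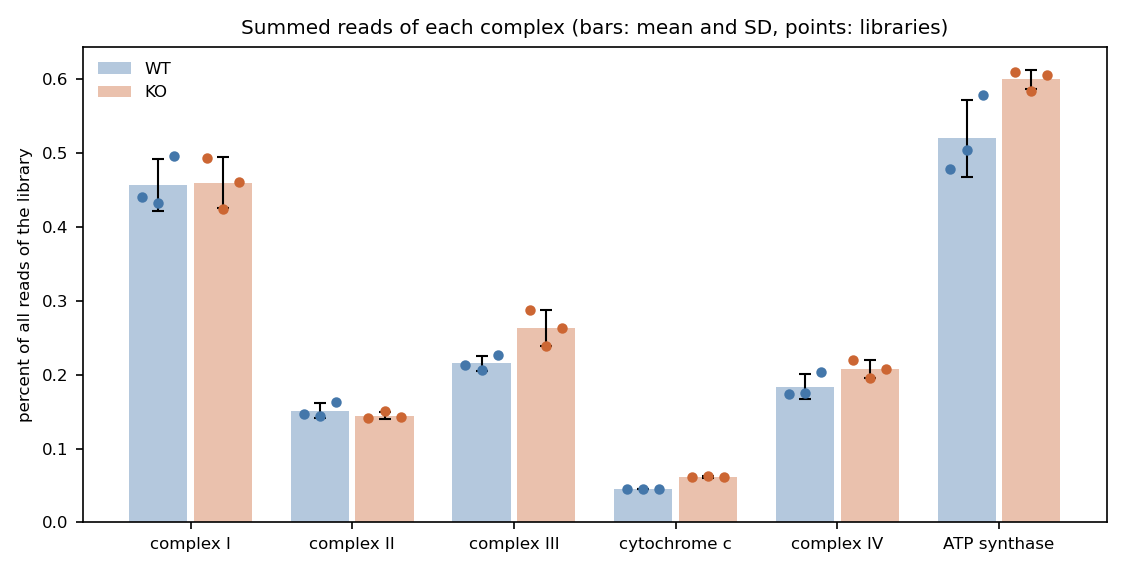
Percent of all gene-assigned reads taken by the summed members of each complex in each library, 1 point per library, with the group mean as a bar and the SD as a line. KO libraries lie wholly above WT for complex III, cytochrome c and ATP synthase, and overlap WT for complexes I, II and IV.

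**Figure D5:**
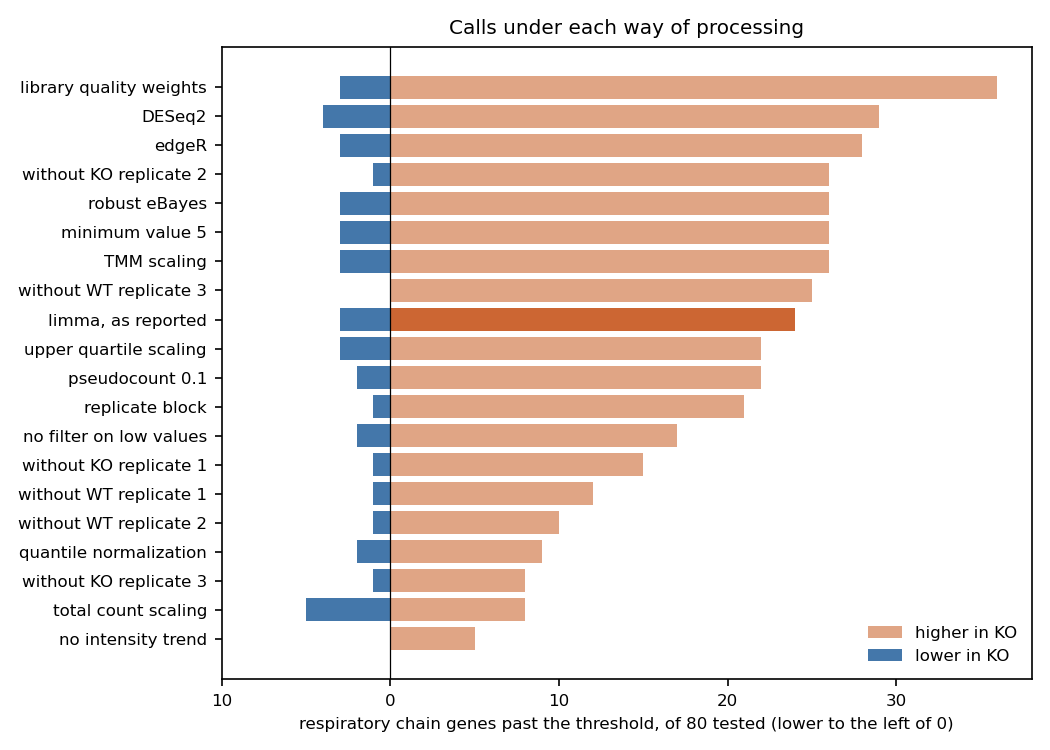
Number of respiratory chain genes called higher and lower in KO (adjusted p under 0.05) with the main settings (dark bar) and under each of the 19 alternatives, with higher genes to the right of 0 and lower genes to the left. With the main settings 24 are higher and 3 lower, without an intensity trend 5 and 0, and without KO replicate 3 the count of higher genes is 8.

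The sequence just upstream of members was read for short words bound by regulators of respiratory genes, the palindrome of nuclear respiratory factor 1 (GCGCA followed by its reverse complement) and the core CCGGAAG of ETS factors such as GABP, on either strand and with no mismatch, in the 300 bases from 250 before to 50 after each start (RefSeq, GRCm38.p6). Of 80 tested members 68 matched an entry. The nuclear respiratory factor 1 word stood in 5 of 68 (7.35%) beside 1.07% of 27025 genes, and the ETS word in 16 of 68 (23.5%) beside 9.93%. Among members higher in KO the words stood in 1 and 4 of 18, and among members not called in 4 and 12 of 48. A match is a description of letters, not a site. Windows without annotated exon are shown for members of different complexes, with and without the ETS word, which is in capitals and lies as its reverse complement, each read 5′ to 3′ on the gene's strand. Cox5a (chr9:57521132-57521231, plus strand) and Atp5g3 (chr2:73911327-73911426, minus strand) are given from 100 bases to 1 base before the start, Sdhd (chr9:50603850-50603909, minus strand) from 60 bases to 1 base before it, and Ndufb6 (chr4:40279572-40279671, minus strand) for the first 100 bases of the window searched, from 250 bases before it.
Cox5a: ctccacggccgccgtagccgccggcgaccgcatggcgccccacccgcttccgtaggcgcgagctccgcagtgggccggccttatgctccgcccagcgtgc
Atp5g3: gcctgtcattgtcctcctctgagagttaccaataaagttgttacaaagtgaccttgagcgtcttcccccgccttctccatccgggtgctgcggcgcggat
Sdhd: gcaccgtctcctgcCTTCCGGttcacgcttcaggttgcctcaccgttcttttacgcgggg
Ndufb6: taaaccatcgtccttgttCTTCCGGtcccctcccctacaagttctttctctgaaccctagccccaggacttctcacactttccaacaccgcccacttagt
The word begins 46 bases before the start in Sdhd and 232 before it in Ndufb6. Cox5a and Atp5g3 hold neither word in the windows shown, while Sdhd and Ndufb6 hold the ETS word. The windows were chosen to show both cases. Among all matched members the ETS word stood in 22.2% of those higher in KO and 25% of those not called.

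Few of the genes that build the complexes were called. Of 52 tested assembly factors, 1 was higher and 2 lower, with a median of 0.11, beside 10.3% and 13% of all genes. Ecsit, a complex I assembly factor that also acts in innate immune signalling, was at 2569.8, 3065 and 2782 in WT and 3688, 4000.3 and 4059 in KO (log2 difference 0.48 ± 0.10 (SE), adjusted p = 0.0126), lost without KO replicate 3 (adjusted p = 0.0611). Tmem126b, of the same assembly complex, differed by -0.34 (adjusted p = 0.0426, limma), a call lost without any 1 of the 6 libraries (adjusted p from 0.0589 to 0.14). Cox14, which acts early in complex IV assembly, was at 4150.0, 3844 and 4539 in WT and 3254, 3050.3 and 2849 in KO (log2 difference -0.45 ± 0.10 (SE), adjusted p = 0.0166), lost without WT replicate 3 or without KO replicate 3 (adjusted p from 0.0526 to 0.0765). None of the 6 assembly factors of complex III was called by limma, edgeR or DESeq2, and 0 had an unadjusted p under 0.05 (limma). Unadjusted, 3298 of all 20136 genes were higher and 3935 lower. With 6 genes, 0 calls cannot be read as a low share. Of the 9 subunits of complex III, 6 were higher. Whether factors and subunits differ in how often they are called was not tested.

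Coenzyme Q synthesis, which makes the lipid carrier between complexes I or II and III, had 4 genes higher and 1 lower of 11 (36.4% and 9.09%, beside 10.3% and 13% of all genes). Pdss2, of the enzyme that builds the side chain, was at 409, 490.1 and 473 in WT and 823, 737 and 748 in KO (log2 difference 0.75 ± 0.15 (SE), adjusted p = 0.00993), and Coq7, a late ring hydroxylase, at 1549.8, 1699 and 1849.8 in WT and 3147, 2377 and 2785 in KO (log2 difference 0.70 ± 0.13 (SE), adjusted p = 0.00893). Both were above WT in every KO library. Pdss1 (0.55, adjusted p = 0.0164) and Coq3 (0.49, adjusted p = 0.0319) were also higher in limma. Coq8a, an atypical kinase of the pathway, was the lower gene, at 3442, 2644 and 4104 in WT and 982, 1157 and 1400.4 in KO (log2 difference -1.52 ± 0.19 (SE), adjusted p = 0.00208).

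Of 13 genes that copy and transcribe mitochondrial DNA, 0 were higher and 2 lower (15.4%, near the 13% of all genes): Mterf1a (-0.78, adjusted p = 0.0209) and Mterf2 (-0.75, adjusted p = 0.0337), members of the transcription termination family, in limma. Mterf1a lost its call without WT replicate 1, 2 or 3 or without KO replicate 3 (adjusted p from 0.0523 to 0.0635), and Mterf2 without WT replicate 1 or 3 or without KO replicate 1, 2 or 3 (adjusted p from 0.0508 to 0.12). Tfam, which packages mitochondrial DNA, differed by -0.18 (adjusted p = 0.277, limma). Of 8 regulators of respiratory genes, 1 was higher and 1 lower (12.5% each, near the 10.3% and 13% of all genes). Gabpa, the DNA-binding subunit of GABP, was at 3358, 3613 and 3138 in WT and 4504, 4974 and 5116 in KO (log2 difference 0.53 ± 0.10 (SE), adjusted p = 0.00760), apart in every library. It overlaps Atp5j, which differed by 0.16 (adjusted p = 0.341, limma). Gabpb1, another subunit gene of GABP, lay the other way but with overlapping groups (log2 difference -0.60 ± 0.28 (SE), adjusted p = 0.168, limma). Nrf1 differed by -0.12 (adjusted p = 0.489, limma). Ppargc1a, the coactivator known as PGC-1alpha, was low, at 77.2, 55.2 and 46.4 in WT and 0, 0 and 17.3 in KO (adjusted p = 0.0250, limma), with a call lost without WT replicate 1, 2 or 3 or without KO replicate 1 or 2 (adjusted p from 0.0564 to 0.0814). The call was also lost with edgeR (adjusted p = 0.0873), library quality weights (adjusted p = 0.141, log2 difference -2.44 against -4.49), a pseudocount of 0.1 (adjusted p = 0.0525) and no intensity trend (adjusted p = 0.0729). Of 5 tested subunits that the symbol rule leaves out, 0 were called by limma, edgeR or DESeq2. By limma 10.3% of all genes were called higher and 13% lower. Unadjusted, 1 of the 5 had a p under 0.05 (limma), beside 3298 genes higher and 3935 lower of 20136. In limma Ndufab1 was at 0.31 (adjusted p = 0.0876) and Cox4i1 at 0.19 (adjusted p = 0.398).

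Overlap with other genes limits some values. Of the 84 members, 33 overlap another annotated gene, among them the called Atp5b, Atp5f1, Ndufb6, Ndufs1, Ndufb5, Uqcrc2, Uqcrb, Cox5a and Cox6a2, and the sources used here do not say whether counting used strand. Small subunits of the chain also have many processed pseudogenes, and reads that match both may be split between them.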

How the data were processed

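Libraries were made from Trizol-extracted poly(A) RNA with a VAHTS mRNA-seq kit, per the labels' protocols. The submitters' processing notes list the builds mm10 and mm8 and the tools StringTie and HISAT2, without roles. Coordinates are those of the deposited tables and matched GENCODE M21 (GRCm38) for every one of 49035 shared identifiers. The deposited tables hold 1 signal per gene and library. Every value was a whole multiple, within 0.01 of a read, of 1 step per library (0.863 to 1.17), so each is a read count divided by a size factor. The authors' way of counting, its use of strand, and its handling of reads that match several genes are not given in the sources used here.

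Log2 of the value plus 1 was tested by limma 3.58.1 (lmFit and trended eBayes, R 4.3.3) for genes that reached 1 in 3 or more of the 6 libraries, KO against WT, 3 libraries each, two-sided, adjusted by the Benjamini-Hochberg method over 20136 genes with a threshold of 0.05. On this scale the changes of low genes are understated. As alternatives, edgeR 4.0.16 and DESeq2 1.42.0 were run on the recovered reads (100% of values whole). These called 28 and 29 members higher. Isoform shares were compared by exact permutation. Every pair of libraries differed by more than sampling noise.

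The members, gene lists and tests were chosen with earlier results of these data known. Values per library are given for up to 4 members of each complex with the smallest p, the largest rise and fall, complex II, cytochrome c, the isoform families, and up to 3 called genes of each other list; genes named beyond these were chosen after their values were seen. Not every member is reported here by name. The alternatives were other scalings, filters, pseudocounts and tests, and leaving out each library.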

Additional observations from a re-analysis of the deposited data

How the results depend on the processing

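Dropping the intensity trend left 5 members higher and 0 lower (complex I 0, complex III 2, complex IV 1 and 0 lower, ATP synthase 1 and 0 lower, complex II 0), with 1071 genes higher overall and 3 and 2 in the other pathway lists. Total read scaling gave 8 and 5 (complex I 0, II 0, III 3, IV 2, ATP synthase 2 and 2 lower), 1337 genes higher, 10 pathway genes lower, and medians of 0.053 for all members, 0.028, -0.16 and 0.22 for complexes I, II and III, 0.020 for ATP synthase and 0.45 for cytochrome c. Quantile normalization gave 9 higher (complex I 2, II 0 and 1 lower, III 3, IV 2 and 0 lower, ATP synthase 1) and medians of 0.070 for all members, -0.24, 0.17 and 0.049 for complexes II, III and IV and 0.33 for cytochrome c. Library weights gave 11 higher in complex I, 15 in the pathway lists and 3198 genes. No filter on low values gave 0 higher in complex II, and 3 higher and 1 lower in complex IV; a pseudocount of 0.1 gave 1 lower there. DESeq2 gave 2 lower in ATP synthase and 10 higher in the pathway lists. The cause was not tested for any of these. With the replicate block 21 members were higher and 1 lower (complex II 0, complex IV 3 and 1 lower, ATP synthase 0 lower). Same-numbered libraries did not deviate together (correlations of -0.023, -0.011 and -0.021), nor did libraries of different numbers (0.0023 to 0.018). Libraries can be paired without deviating together, so this check cannot decide whether the numbers pair them. Without division by length, the share differences were -3.64 for Atp5g2 and -3.42 for Cox6b2 percentage points.

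Leaving out 1 library at a time gave 8 to 26 members higher and 0 to 1 lower, with 1 to 7, 0 to 1, 3 to 8 and 2 to 6 higher in complexes I to IV, 0 to 1 lower in complex IV, 1 to 6 higher and 0 to 1 lower in ATP synthase, 3 to 8 higher and 1 to 3 lower in the pathway lists, and 993 to 1787 genes higher and 1565 to 2604 lower. Medians ranged over 0.16 to 0.26 for all members, 0.11 to 0.25, -0.04 to 0.03, 0.30 to 0.45 and 0.19 to 0.30 for complexes I to IV, 0.12 to 0.32 for ATP synthase and 0.58 to 0.61 for cytochrome c. Share differences (KO minus WT, percentage points) ranged over -1.05 to 0.00418 for Atp5g1, whose sign thus turned, -6.38 to -4.97 for Atp5g2, 5.29 to 7.06 for Atp5g3, -0.781 to -0.547 for Cox6a2, -2.50 to -2.14 for Cox6b2 and -0.633 to -0.0835 for Cox7a1. Signs turned for uncalled genes: Sdha was at -0.015 with library weights, -0.27 with quantile normalization, -0.14 with total reads, -0.0040 with upper quartile scaling, and from -0.15 to 0.14 as single libraries were left out (below 0 without KO replicate 2, WT replicate 1 or WT replicate 2). Atp5g2 was at -0.011 with total reads, and Cox7a1 ranged from -1.29 to 0.063, the latter without KO replicate 2. Reads without molecular identifiers are not independent molecules, and which members depth limits was not tested.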

Other observations

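The 6 pseudogene symbols that the rule leaves out were counted too. Atp5l2-ps was at 131, 137 and 170.3 normalised reads in WT replicates 1 to 3 and at 192.9, 173.9 and 128.6 in KO replicates 1 to 3, with overlapping groups. The other 5 stayed between 0 and 6.62 in every library. Ndufa4l2, the hypoxia-linked paralogue of Ndufa4, was at 9.49 in KO replicate 3 and at 0 in the other 5 libraries.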
